A study of Homo sapiens and Mus musculus with 16 samples.

Results

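HNF4A, FOXA1, FOXA2, GATA4, GATA6, SOX17, PROX1, APOB and AFP are genes by which the formation of endoderm and its turn towards liver are commonly followed. They were looked up by symbol in a human table of 22286 genes, and all 9 were found there. RNA had been sequenced from sorted P-bodies, which are cytoplasmic granules of RNA and protein, and from the cytoplasm of the same kind of cells. Per the study's methods, the cytoplasm was a resuspended lysate pellet, taken before P-bodies were sorted from it. It therefore held P-bodies as well. Liver bud progenitors were the cells of main interest. Neurons at day 20 of differentiation and HEK293T, a human embryonic kidney line, served for contrast, and each cell type had 2 P-body and 2 cytoplasm libraries.

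Liver bud progenitors and neurons came from a single human embryonic stem cell line, UCLA4, labelled UCLA4-LSM14a-GFP, and the kidney cells were labelled HEK293T-LSM14a-GFP. Cells of every group, cytoplasm included, thus carried the P-body protein LSM14A fused to GFP, which per the study was placed at the AAVS1 locus in the stem cells. No group without the fusion was compared. The labels give polyA RNA for liver bud progenitors and neurons and total RNA for HEK293T, made with different library kits, so cell type and kit cannot be told apart where HEK293T is set beside the others. Nothing in the labels says that the 2 libraries of a group came from separate cultures, whereas the study calls them biologically independent samples. If they did not, the p-values measure only the spread between these libraries.

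Totals ran from 6368953 to 17972284 counts per library, and values are given as CPM, the count scaled to a common library total. A gene with at most 3 counts in a library was treated as at the floor, which was 0.167 to 0.471 CPM depending on depth. Ribosomal RNA genes took 4.32% to 24.9% of the counts. Replicates of a group differed by a chi-square of 3.81 to 7.14 per gene, except for the neuron P-bodies at 28.1, so the neuron P-body libraries stood apart from each other more than any other pair.

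Definitive endoderm is the embryonic sheet from which liver, pancreas and gut arise. SOX17 and the GATA and FOXA factors act early in it, the FOXA factors by opening closed chromatin at liver genes before these are used. HNF4A is a nuclear receptor at the centre of the later hepatocyte programme, PROX1 is a homeobox factor with which hepatoblasts leave the liver bud, and APOB and AFP encode proteins that the fetal liver secretes. A messenger RNA in a P-body is generally held out of translation, so the share of a fate gene's RNA found there bears on how much of it is available to ribosomes. A ratio of CPM between the fractions shows relative enrichment and does not give that share.

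In the cytoplasm of liver bud progenitors all 9 genes were above the floor. Per kilobase of transcript, the scale on which different genes can be compared, the level was 21.2 ± 1.04 CPM per kb (SD, n = 2) for APOB, 13.1 ± 0.349 for GATA4, 9.64 ± 0.22 for GATA6 and 8.38 ± 0.334 for HNF4A. The other 5 genes lay far below these. FOXA2 and AFP had 3.62 ± 1.01 and 3.31 ± 0.0718 CPM per kb and did not differ beyond their spread. SOX17, PROX1 and FOXA1 followed, at 1.79 ± 0.543, 1.42 ± 0.218 and 1.39 ± 0.255 CPM per kb, and did not differ beyond their spread either.

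The label of these cells was checked against markers. TTR, a thyroid hormone carrier made by early hepatic cells, had 34.9 and 40.4 CPM in cytoplasm. ALB, which encodes albumin and defines hepatocytes, had 0 and 0 counts in cytoplasm and 1 and 2 in P-bodies, all at or under the floor, and AHSG, another hepatocyte product, had 0 counts in these 4 libraries. Of 22 genes for hepatocyte secreted proteins and lipid transport present in the table, 15 were above the floor in both libraries of each fraction. In neurons 7 were above it in cytoplasm and 11 in P-bodies, and in HEK293T 5 and 7. The summed level of this list did not set the cells apart. It was 1190 to 1310 CPM in liver bud cytoplasm and 1270 to 1280 CPM in neuron cytoplasm. In liver bud progenitors all 12 pluripotent stem cell markers were above the floor as well. Their summed level was 2860 to 2880 CPM in cytoplasm and 4860 to 4940 CPM in P-bodies. Neuron markers summed to 578 to 661 CPM over the 4 libraries, against 12200 to 14400 CPM in the neurons. Markers of mesoderm and heart summed to 55.4 to 67 CPM and those of other gut endoderm to 37.9 to 61.7 CPM. What part the other cell types had in the values below was not tested. In such bulk samples fewer cells of a type and less RNA per cell cannot be told apart.

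The first comparison set the level of each gene in P-bodies beside that in cytoplasm within liver bud progenitors. HNF4A, GATA4, GATA6, SOX17 and APOB were lower in P-bodies than in cytoplasm, by 2.09-fold to 2.35-fold, and PROX1 was higher by 1.4-fold. FOXA1, FOXA2 and AFP did not pass the test, which was edgeR's quasi-likelihood test with Benjamini-Hochberg adjustment over 21951 genes. Among all genes tested 17.1% were lower and 21.4% higher in P-bodies, beside 5 and 1 of the 9 here (4 and 0 by DESeq2). The shares of all genes include genes too scarce to be called. With a stricter filter on low counts, 4143 of 14413 genes were lower and 4268 higher, and 5 of the 9 were called. By DESeq2 2555 of 21951 genes were lower and 3702 higher. The median log2 difference was -1.06 over the 9 genes and -0.09 over all genes.

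**Figure D1:**
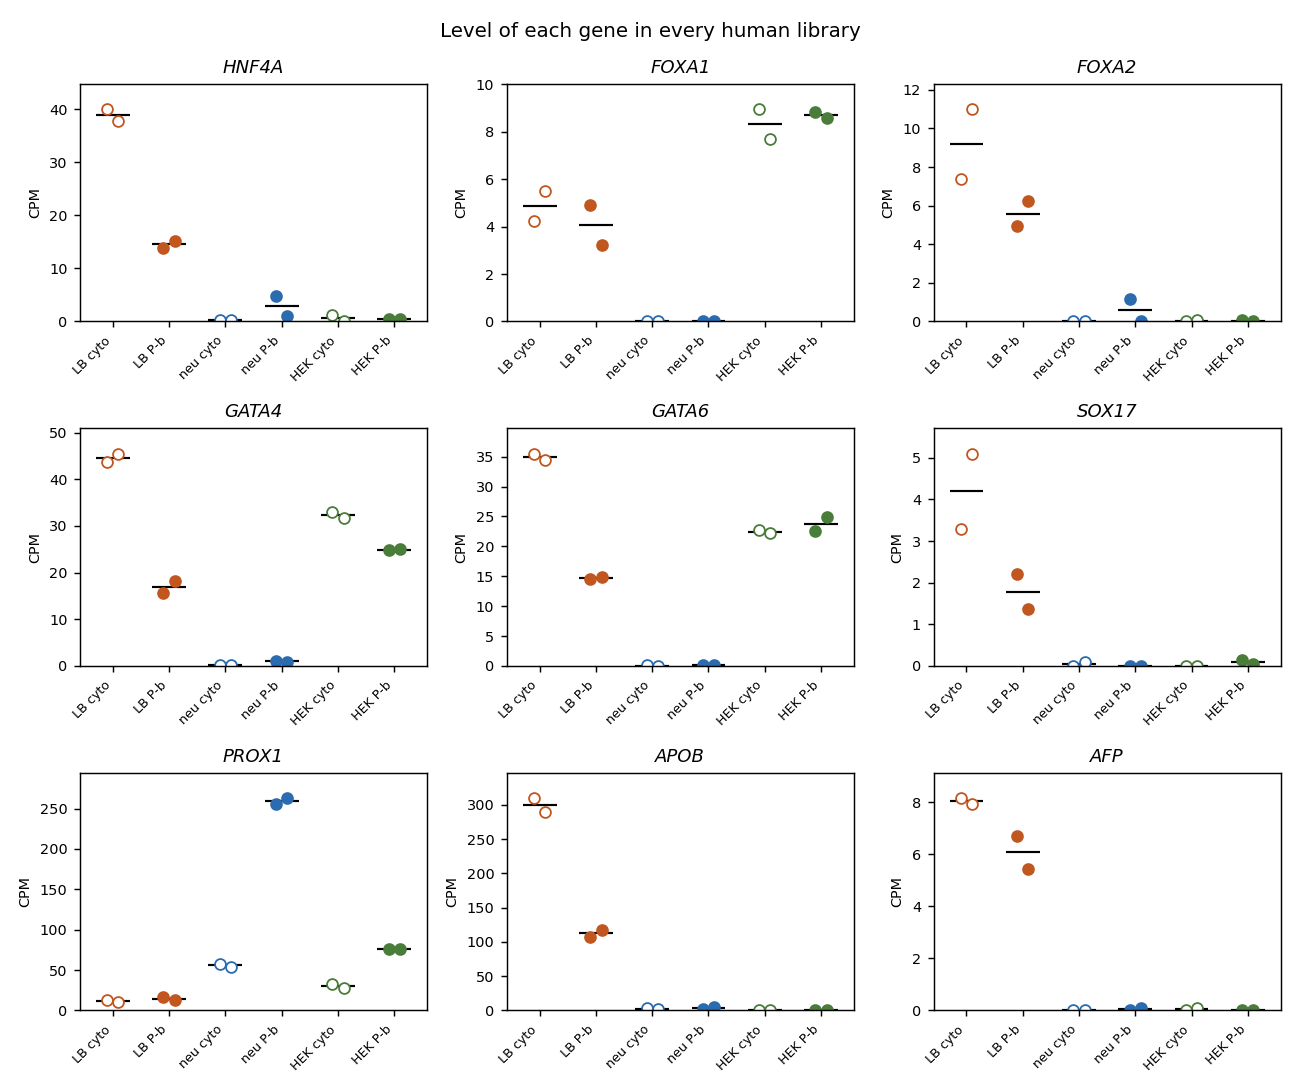
Level of each of the 9 genes (vertical axes, CPM, linear from 0, a scale of its own for each gene) in cytoplasm (open circles, cyto) and P-bodies (filled circles, P-b) of liver bud progenitors (LB), day 20 neurons (neu) and HEK293T (HEK). Each circle is a library and each bar the mean of 2 libraries. HNF4A fell from 38.9 to 14.5 CPM between cytoplasm and P-bodies of liver bud progenitors, whereas PROX1 was highest in neuron P-bodies, at 259 CPM.

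GATA4 and GATA6 are zinc finger factors of endoderm and heart. GATA4 had 43.8 and 45.5 CPM in the cytoplasm libraries and 15.7 and 18.1 CPM in the P-body libraries. Both cytoplasm values were above both P-body values, and the log2 difference was -1.21 ± 0.14 (SE; edgeR's quasi-likelihood test, Benjamini-Hochberg adjusted p = 8.93e-12). With 2 libraries per fraction, whether values overlap is only a description, here and for the genes below. It rests on CPM, which lack the further scaling between libraries used in edgeR's test. GATA6 had 35.5 and 34.4 CPM in cytoplasm and 14.5 and 14.8 CPM in P-bodies. The fractions again did not overlap, with a log2 difference of -1.07 ± 0.15 (edgeR, adjusted p = 8.15e-09). The GATA4 and GATA6 differences lay within a standard error of each other.

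SOX17, which specifies definitive endoderm, had the fewest counts of the 9 genes in these cells, with 21 and 38 counts in cytoplasm and 21 and 14 in P-bodies. As levels these were 3.3 and 5.1 CPM against 2.2 and 1.36 CPM, so the fractions did not overlap. The log2 difference of -1.06 ± 0.42 passed narrowly (edgeR, adjusted p = 0.0387). It did not pass with DESeq2 (adjusted p = 0.187), in a fit of all 12 human libraries (adjusted p = 0.366), without P-body library 2 (-0.75, adjusted p = 0.253) or without cytoplasm library 2 (-0.74, adjusted p = 0.382).

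The FOXA factors bind nucleosomal DNA at liver enhancers. FOXA2 had 7.38 and 11 CPM in cytoplasm and 4.93 and 6.23 CPM in P-bodies. Its fractions did not overlap, but the log2 difference of -0.54 ± 0.26 did not pass (edgeR, adjusted p = 0.105). It passed with scaling by library size only (-0.73, adjusted p = 0.019) and without cytoplasm library 1 (-0.8, adjusted p = 0.0347). FOXA1 had 4.24 and 5.5 CPM in cytoplasm and 4.93 and 3.21 CPM in P-bodies, and its fractions overlapped. With 27 to 47 counts per library its log2 difference of -0.09 ± 0.33 (edgeR, adjusted p = 0.881) was small beside its error, so no difference was detectable at this depth.

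HNF4A had 40 and 37.8 CPM in cytoplasm and 13.8 and 15.2 CPM in P-bodies, from 255 and 282 counts against 132 and 156. Every cytoplasm value was more than 2 times any P-body value. The log2 difference was -1.23 ± 0.15 (edgeR, adjusted p = 4.99e-11), and it stayed between -1.31 and -1.17 whichever library was left out. The table counts by symbol, so RNA from the separate promoters of HNF4A was not distinguished.

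PROX1 differed from HNF4A in direction. It had 13.3 and 10.7 CPM in cytoplasm and 16.5 and 13.1 CPM in P-bodies, and the fractions overlapped. The log2 difference of 0.49 ± 0.2 passed narrowly (edgeR, adjusted p = 0.0449). It did not pass with scaling by library size only (0.3, adjusted p = 0.249), with DESeq2 (0.47, adjusted p = 0.228), with a stricter filter on low counts (0.4, adjusted p = 0.0972) or with ribosomal RNA genes left out (0.47, adjusted p = 0.0504). Nor did it pass without P-body library 1 (0.31, adjusted p = 0.359) or without cytoplasm library 2 (0.3, adjusted p = 0.414).

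APOB encodes the structural protein of lipoproteins that carry triglyceride out of the liver, and it had by far the most counts of the 9 genes in these cells. Its level was 310 and 289 CPM in cytoplasm and 107 and 118 CPM in P-bodies. The log2 difference was -1.22 ± 0.07 (edgeR, adjusted p = 1.84e-24), about the same size as that of HNF4A with a smaller error. AFP encodes alpha-fetoprotein, the albumin-like carrier of fetal serum. It had 8.16 and 7.92 CPM in cytoplasm and 6.71 and 5.45 CPM in P-bodies, which did not overlap. The log2 difference of AFP was -0.22 ± 0.26 (edgeR, adjusted p = 0.579). APOB and AFP, both messages for secreted proteins, were thus at different places in the range of the 9 genes.

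**Figure D2:**
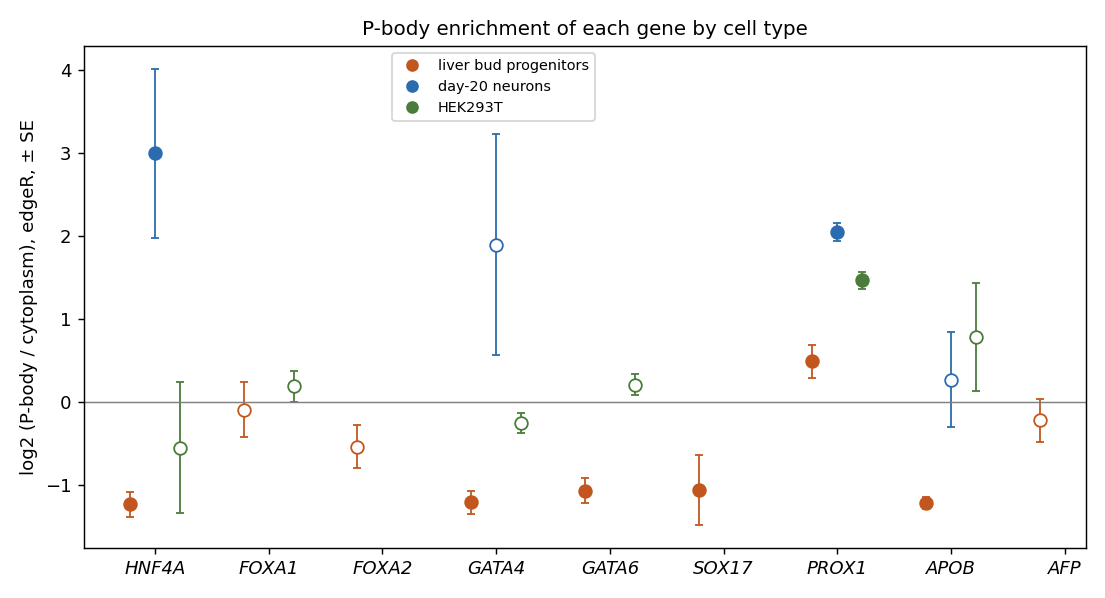
P-body enrichment of the 9 genes (vertical axis, log2 of P-body over cytoplasm from edgeR; bars are ± 1 SE) in liver bud progenitors (orange), day 20 neurons (blue) and HEK293T (green). Filled circles passed an adjusted p of 0.05, open circles did not, and a gene with at most 3 counts in total in either fraction is left out for that cell type. PROX1 is above 0 in all 3 cell types, at 0.49, 2.05 and 1.47, whereas HNF4A, GATA4, GATA6, SOX17 and APOB are near -1 in liver bud progenitors.

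In the neurons, which share their stem cell line and library kit with the liver bud progenitors, 8 of the 9 genes were scarce. FOXA1 had 0 counts in all 4 neuron libraries. GATA6, SOX17 and AFP had at most 2 counts in any of them, which is under the floor, so no fold is given. PROX1, which in neural tissue acts in interneurons and granule neurons, was the exception. It had 57.7 and 54 CPM in neuron cytoplasm and 256 and 263 CPM in neuron P-bodies. The P-body values were well apart from the cytoplasm values, with a log2 difference of 2.05 ± 0.11 (edgeR, adjusted p = 2.8e-08).

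HNF4A also passed in the neurons, with 4.86 and 1.06 CPM in P-bodies and 0.349 and 0.29 CPM in cytoplasm. The log2 difference was 3 ± 1.02 (edgeR, adjusted p = 0.0425), but it rested on 42 and 10 counts in P-bodies and 4 and 3 in cytoplasm. Without P-body library 1 the difference was 1.51 (adjusted p = 0.384), and without cytoplasm library 1 or 2 the adjusted p was 0.155 or 0.185. FOXA2 showed the same library apart from its partner, with 10 and 0 counts in P-bodies and 0 in cytoplasm, a total at least 2.1-fold higher. That P-body pair is also the one with the largest spread over all genes. Whether this spread had a part in the HNF4A and FOXA2 values was not tested. Called counts in neurons were 2 of 9 higher and 0 lower by edgeR, by DESeq2 and at an unadjusted p of 0.05 alike, beside 14.6% and 14.1% of all genes. GATA4 (1.9 ± 1.33, edgeR adjusted p = 0.312) and APOB (0.27 ± 0.57, adjusted p = 0.752) did not pass.

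Between liver bud progenitors and neurons the cytoplasm levels of all 9 genes differed. In liver bud progenitors 8 were higher and PROX1 was lower, where 25.8% of all genes were higher and 26% lower. By fitted log2 difference APOB was higher by 6.4 ± 0.14, HNF4A by 6.48 ± 0.31 and GATA4 by 7.14 ± 0.32 (edgeR, adjusted p = 5.34e-52, 1.64e-30 and 1.81e-32). FOXA2, AFP and FOXA1 had 0 counts in neuron cytoplasm, and taking 3 counts per library there they were at least 33.3-fold, 29.2-fold and 17.7-fold higher in liver bud progenitors. For GATA6 and SOX17, with 1 count each in neuron cytoplasm, the ratio of summed CPM was 761 (95% counting interval 136 to 30100) and 93.2 (16.1 to 3740). PROX1 fell by 2.61 ± 0.16 on the log2 scale (edgeR, adjusted p = 4.12e-25), since neuron cytoplasm held 55.9 ± 2.59 CPM and liver bud cytoplasm 12 ± 1.85 CPM (SD, n = 2).

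In P-bodies the same 8 genes were higher in liver bud progenitors and PROX1 was lower, where 22.7% and 18.4% of all genes were called in these directions. For HNF4A, GATA4 and APOB the gap between the cell types was smaller in P-bodies than in cytoplasm. HNF4A differed by 2.45 ± 0.56, GATA4 by 4.21 ± 0.39 and APOB by 5.07 ± 0.21 on the log2 scale (edgeR, adjusted p = 0.00599, 1.61e-05 and 5.88e-08). FOXA2 differed by 3.41 ± 1 (adjusted p = 0.0209), and by 2.4 without neuron P-body library 2, which had 0 counts. With each library left out the FOXA2 difference ranged from 2.4 to 8.82. All 10 of the FOXA2 counts in neuron P-bodies lay in library 1. HNF4A differed by 3.91 without neuron P-body library 1 and by 1.72 without library 2. FOXA1 and SOX17, with 0 counts in neuron P-bodies, were at least 12.3-fold and 5.37-fold higher. PROX1 fell by 3.99 ± 0.13 (edgeR, adjusted p = 1.56e-08), a wider gap than in cytoplasm.

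The difference in P-body enrichment between the cell types was tested directly as an interaction. Of the 9 genes, 4 had more than 3 counts in total in each of the 4 groups, and all 4 had a lower enrichment in liver bud progenitors than in neurons, beside 9.21% of all genes lower and 8.5% higher. The shares of all genes include genes too scarce to be called. With the stricter filter on low counts, 2601 of 16619 genes were lower and 1536 higher. PROX1 differed by -1.55 ± 0.2 on the log2 scale (edgeR, adjusted p = 6.41e-05), although it lay towards P-bodies in both cell types. APOB differed by -1.5 ± 0.28 (adjusted p = 0.00142), GATA4 by -3.1 ± 0.6 (adjusted p = 0.00192) and HNF4A by -4.2 ± 0.76 (adjusted p = 0.00116), the last 2 on few counts in neurons. The spread in this fit was taken over all 8 libraries together. For APOB, GATA4 and HNF4A the errors were smaller than in neurons alone, where they were 0.57, 1.33 and 1.02. The p-values thus do not measure the spread of the neuron P-body pair by itself. The HNF4A difference was -2.64 without neuron P-body library 1, and that of APOB was -0.99 without neuron P-body library 2 (edgeR, adjusted p = 0.00416 and 0.0328). The median difference of all genes was -0.23, and -0.58 with scaling by library size only.

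HEK293T cells expressed some of the genes well. GATA4 and GATA6 had 32.4 ± 0.896 and 22.5 ± 0.311 CPM in HEK293T cytoplasm (SD, n = 2), FOXA1 had 8.32 ± 0.901 and PROX1 had 30.1 ± 4.12. FOXA2, SOX17 and AFP had at most 2 counts in any HEK293T library. PROX1 was the only one of the 9 called in HEK293T, with 33 and 27.2 CPM in cytoplasm and 76.3 and 76.7 CPM in P-bodies. Its log2 difference was 1.47 ± 0.1 (edgeR, adjusted p = 7.44e-20), and 19.3% of all genes were higher and 22.8% lower in these P-bodies. GATA4 had 33 and 31.7 CPM in cytoplasm and 24.9 and 25 CPM in P-bodies. Its fractions did not overlap, and the log2 difference of -0.25 ± 0.12 did not pass (edgeR, adjusted p = 0.112) except with scaling by library size only (-0.38, adjusted p = 0.00945). GATA6 (0.21 ± 0.13), FOXA1 (0.19 ± 0.19), APOB (0.79 ± 0.65) and HNF4A (-0.55 ± 0.79) did not pass either, with edgeR adjusted p-values of 0.235, 0.5, 0.376 and 0.644.

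Set against HEK293T, 4 of the 6 genes with more than 3 counts in total in every group had a lower enrichment in liver bud progenitors, beside 15% of all genes lower and 12.5% higher. With the stricter filter on low counts, 2410 of 15757 genes were lower and 3739 higher. GATA6 differed by -1.51 ± 0.2, GATA4 by -1.19 ± 0.18, PROX1 by -1.21 ± 0.21 and APOB by -2.24 ± 0.42 on the log2 scale (edgeR, adjusted p = 1.49e-08, 3.78e-07, 4.51e-06 and 2.29e-05). HNF4A (-0.9 ± 0.61, adjusted p = 0.318) and FOXA1 (-0.51 ± 0.38, adjusted p = 0.373) did not pass. The HNF4A difference rested on the HEK293T cytoplasm libraries, with 15 and 2 counts, and was -2.87 without library 1 (edgeR, adjusted p = 0.00891) and -0.12 without library 2 (adjusted p = 0.96). GATA4 and GATA6 had more than 100 counts in every library of both cell types. Their cytoplasm RNA was 1.38-fold and 1.55-fold that of HEK293T (95% counting intervals 1.24 to 1.54 and 1.37 to 1.76), while their P-body RNA was 0.68-fold and 0.614-fold (0.597 to 0.773 and 0.535 to 0.703). These ratios of summed CPM were not tested over libraries. As noted for the design, cell type and library kit cannot be told apart here.

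The order of the 6 groups for each gene follows from these values. For HNF4A and APOB, liver bud cytoplasm stood first and liver bud P-bodies second, with the HEK293T and neuron groups far below. For GATA4 the order was liver bud cytoplasm, HEK293T cytoplasm, HEK293T P-bodies and liver bud P-bodies, with no overlap between neighbours. GATA6 had the same group at the top and at the bottom of these 4, but HEK293T P-bodies and cytoplasm, at 23.7 ± 1.68 and 22.5 ± 0.311 CPM, overlapped. For PROX1 the order was neuron P-bodies, HEK293T P-bodies, neuron cytoplasm, HEK293T cytoplasm, liver bud P-bodies and liver bud cytoplasm, and only the last pair overlapped. FOXA1 was highest in HEK293T, where its fractions overlapped, and FOXA2, SOX17 and AFP were highest in liver bud cytoplasm followed by liver bud P-bodies.

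The genes lie on 7 chromosomes of the human assembly hg38, in the GENCODE annotation. The positions given are those of the canonical transcript of each gene, not of the whole gene. HNF4A spans 44355699 to 44432845 of chromosome 20 on the plus strand, and FOXA2, on the minus strand of the same chromosome, spans 22580998 to 22584572. FOXA1 lies on the minus strand of chromosome 14 from 37589552 to 37595249. GATA4 (11704202 to 11760002) and SOX17 (54457935 to 54460892) are both on the plus strand of chromosome 8, and GATA6 is on the plus strand of chromosome 18 from 22169589 to 22202528. PROX1 spans 213987973 to 214041510 of chromosome 1 on the plus strand, AFP spans 73436221 to 73456174 of chromosome 4 on the plus strand, and APOB spans 21001429 to 21044073 of chromosome 2 on the minus strand.

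Base composition, which was not used to choose the genes, also set them apart from each other. The share of G or C at the third position of codons (GC3), where most base changes leave the protein the same, was 79.2% to 92.4% in the 6 factors HNF4A, FOXA1, FOXA2, GATA4, GATA6 and SOX17, above at least 90.1% of the coding genes that averaged 5 CPM or more in liver bud progenitors. It was 58.3% in PROX1, 47% in APOB and 38.1% in AFP. Among these 10083 genes P-body enrichment fell as GC3 rose, with a Spearman correlation of -0.63 across genes, which are not independent replicates. The correlation was -0.71 with GC content of the whole transcript and -0.11 with its length.

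Short coding stretches show what these percentages look like in the RNA. Each is a run of 90 bases within 1 exon whose GC3 is the closest to that of the whole coding sequence, read from hg38 in the direction of the RNA, with the third position of each codon in capitals. They come from exon 2 of HNF4A (chr20:44406063-44406152, plus strand), exon 2 of PROX1 (chr1:213996683-213996772, plus strand), exon 9 of APOB (chr2:21033409-21033498, minus strand) and exon 3 of AFP (chr4:73438175-73438264, plus strand). Of the 30 capitals, 24 are G or C in HNF4A, 18 in PROX1, 14 in APOB and 11 in AFP.
HNF4A: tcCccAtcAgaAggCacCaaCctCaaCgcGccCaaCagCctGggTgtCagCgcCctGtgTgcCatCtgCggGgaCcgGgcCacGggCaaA
PROX1: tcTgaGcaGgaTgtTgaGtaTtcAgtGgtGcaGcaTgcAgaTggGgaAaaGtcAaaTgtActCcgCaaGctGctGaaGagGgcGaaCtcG
APOB: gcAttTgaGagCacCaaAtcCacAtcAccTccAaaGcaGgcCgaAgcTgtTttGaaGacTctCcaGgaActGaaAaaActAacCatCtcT
AFP: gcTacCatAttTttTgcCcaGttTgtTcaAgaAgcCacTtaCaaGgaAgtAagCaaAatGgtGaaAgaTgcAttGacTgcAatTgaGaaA

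When the 10083 genes were divided by GC3 into 5 groups of nearly equal size, the median log2 difference between P-bodies and cytoplasm fell from 0.85 in the lowest group through 0.58, 0.16 and -0.26 to -0.49 in the highest. HNF4A, FOXA2, GATA4 and GATA6 were in the highest group, where 53.7% of genes were lower in P-bodies and 8.1% higher. APOB was in the second lowest group, where only 9.1% were lower. Among the 829 genes within 2 percentage points of its GC3 the median was 0.5 and the quartiles 0.06 and 0.86, and only 1.4% lay below the -1.22 of APOB. AFP, at -0.22, stood above only 5.9% of the 875 genes near it, whose median was 0.76. For HNF4A, GATA4 and GATA6 the share of like genes below them was 10.9%, 11.3% and 17.6%. The other 3 factors of high GC3 were spread more widely, with 9.4% for SOX17, 26.7% for FOXA2 and 75.7% for FOXA1. SOX17 and FOXA1 themselves averaged under 5 CPM. PROX1 stood above 75.6% of the genes like it in liver bud progenitors, and above 98.3% and 98.9% of them in neurons and HEK293T. GATA4 and GATA6, low among like genes in liver bud progenitors, stood above 79.9% and 88.7% of them in HEK293T. In HEK293T the share was 93.2% for FOXA1 and, on few counts, 70.1% for HNF4A and 74.1% for APOB. In neurons it was 100% for HNF4A, 99.8% for GATA4 and 50.4% for APOB, all on few counts. These shares describe where a gene lies and are not tests.

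**Figure D3:**
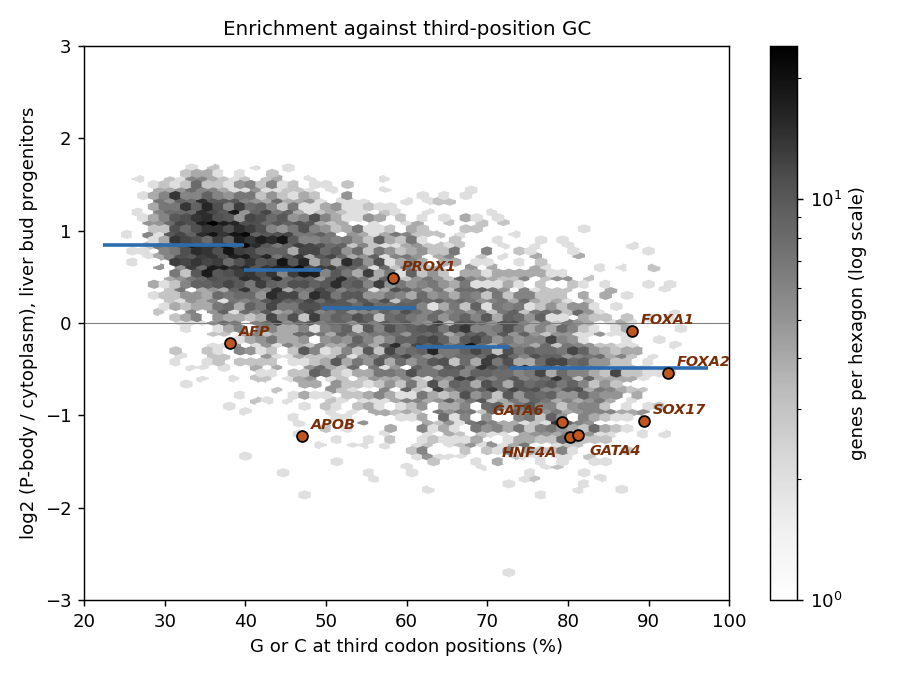
P-body enrichment in liver bud progenitors (vertical axis, log2 of P-body over cytoplasm from edgeR) against GC3 (horizontal axis, percent) for 10083 coding genes that averaged 5 CPM or more. Grey hexagons count genes on a log scale, blue bars are the medians of the 5 groups of genes by GC3, and orange points are the 9 genes. APOB and AFP lie towards the lower edge of the cloud at their GC3, whereas FOXA2 and PROX1 lie within it.

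Further genes of the endoderm and liver programmes were taken by list. In P-bodies of liver bud progenitors edgeR called 21.4% of all genes higher and 17.1% lower, beside which the list counts stand. With the stricter filter on low counts, 4268 of 14413 genes were higher and 4143 lower. DESeq2 called 3702 of 21951 genes higher and 2555 lower. Of 20 genes of endoderm formation, 2 were higher and 4 lower in P-bodies of liver bud progenitors and 14 did not pass, with a median log2 difference of -0.17. DESeq2 called 1 higher and 2 lower. CER1, a secreted inhibitor of NODAL, and EOMES, a T-box factor of the primitive streak, fell by 0.55 ± 0.11 and 0.48 ± 0.2 (adjusted p = 8.96e-06 and 0.0471). OTX2 and LEFTY2 rose by 0.43 ± 0.07 and 0.63 ± 0.26 (adjusted p = 5.65e-07 and 0.0494). The endoderm surface receptor CXCR4 (-0.09 ± 0.1), the remaining FOXA factor FOXA3 (0.14 ± 0.26) and HHEX (-0.16 ± 0.62), a homeobox factor of the early liver bud, did not pass (edgeR, adjusted p = 0.572, 0.733 and 0.881).

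Hepatic transcription factors were split in direction, with 4 of the 23 tested higher, 3 lower and 16 not passing and a median of -0.16 (3 and 3 called by DESeq2). HNF4G, the close relative of HNF4A, went the other way from it, with 2.51 and 5.64 CPM in cytoplasm and 11.1 and 9.93 CPM in P-bodies (1.52 ± 0.28, edgeR adjusted p = 4.37e-06). XBP1, a factor of the secretory pathway, rose by 0.6 ± 0.11 (adjusted p = 4.14e-06). TBX3, which keeps hepatoblasts dividing, fell by 1 ± 0.16 (adjusted p = 2.75e-07). Among hepatocyte secreted proteins and lipid transport genes, 2 of 21 tested were higher, 7 lower and 12 did not pass, with a median of -0.41. DESeq2 called 1 higher and 3 lower in this list. LRP1, a large lipoprotein receptor, went from 820 and 902 CPM in cytoplasm to 189 and 194 CPM in P-bodies (-1.98 ± 0.06, edgeR adjusted p = 1.91e-39). P4HB, a subunit of the complex that lipidates APOB, fell by 0.61 ± 0.08 (adjusted p = 1.36e-09). The short secreted messages TTR and APOA2 rose by 0.47 ± 0.11 and 0.74 ± 0.26 (adjusted p = 0.000442 and 0.0152), and APOA1, at 1.74 to 2.36 CPM, did not pass (0.06 ± 0.49, adjusted p = 0.944).

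**Figure D4:**
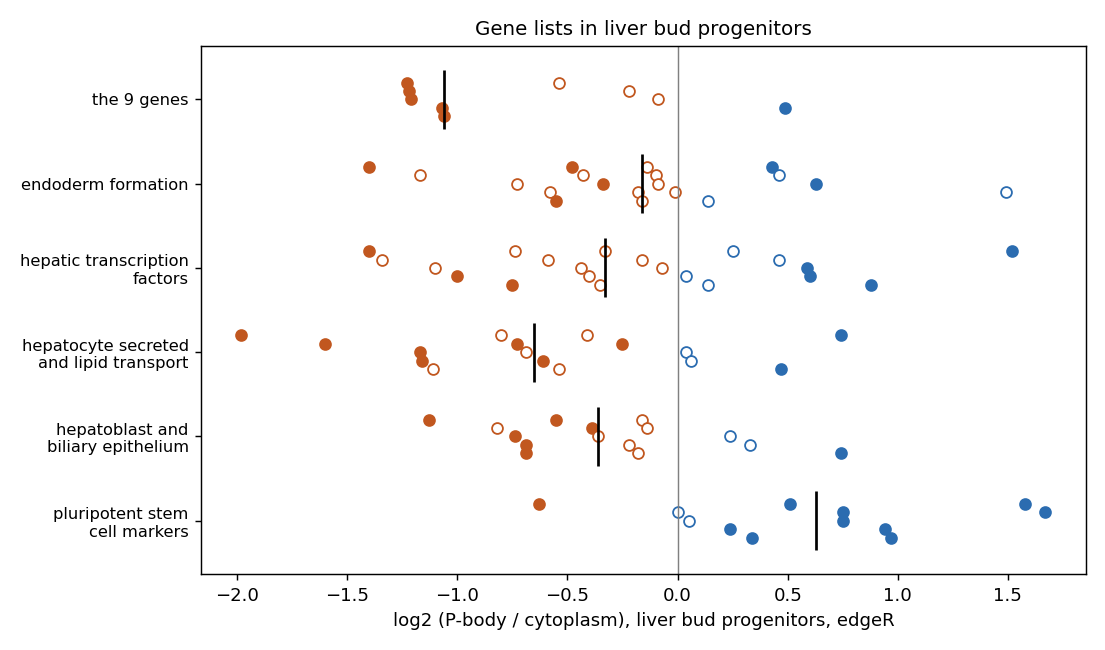
P-body enrichment in liver bud progenitors (horizontal axis, log2 of P-body over cytoplasm from edgeR) for the 9 genes and 5 lists. Each circle is a gene with more than 3 counts in total in each fraction, filled where the adjusted p was under 0.05, orange below 0 and blue from 0 upwards, and the black bar is the median of the circles, which leaves out the scarcest genes that the medians in the text include. The 9 genes have a median of -1.06, against 0.63 for pluripotent stem cell markers.

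Of 15 genes of hepatoblasts and biliary epithelium, 1 was higher, 6 were lower and 8 did not pass, with a median of -0.36 (1 and 4 called by DESeq2). The receptor NOTCH2, used in bile duct formation, and the epithelial adhesion gene CDH1 fell by 1.13 ± 0.07 and 0.69 ± 0.06 (edgeR, adjusted p = 7.96e-22 and 1.25e-15), and SPP1, which encodes osteopontin, rose by 0.74 ± 0.09 (adjusted p = 3.56e-10). Pluripotent stem cell markers were placed the other way, with 9 of 12 higher, 1 lower and 2 not passing and a median of 0.63 (8 and 1 called by DESeq2). L1TD1 and TERF1 rose by 1.67 ± 0.05 and 1.58 ± 0.05 (edgeR, adjusted p = 5.09e-39 and 5.45e-39), POU5F1 by 0.24 ± 0.09 (adjusted p = 0.0195), and DNMT3B fell by 0.63 ± 0.07 (adjusted p = 3.03e-11). Neuron markers had 5 of 12 higher, ELAVL3 (1.03 ± 0.14) and SYT1 (0.85 ± 0.1) among them, and 2 lower, which were NCAM1 (-0.46 ± 0.11) and TUBB3 (-0.54 ± 0.12), against 4 and 2 by DESeq2. Mesoderm and cardiac markers had 0 of 13 higher and 1 lower (TBX6) by edgeR, against 2 and 2 at an unadjusted p of 0.05 and 0 and 0 by DESeq2. Other gut endoderm markers had 0 of 10 in either direction by edgeR and by DESeq2, and 1 lower at an unadjusted p of 0.05. Whether any list differed from the rest of the genes was not tested.

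Genes whose levels followed those of the members most closely were sought by Pearson's r of log2(CPM + 1) over the 12 human libraries among the 11051 genes that averaged 5 CPM or more. GATA4 was closest to GATA6 (r = 0.994), and GATA6 to the adhesion receptor ADGRG6 (0.995), GATA4 and the collectin COLEC12 (0.993). Among the genes closest to HNF4A were DUOX2 (0.987) and ESYT3 (0.981), and APOB was closest to CRYBG1 (0.994), AHNAK (0.993) and EPHA1 (0.993). PROX1 had ZKSCAN2 (0.979), FAXC (0.975) and KIF21A (0.969). The libraries fall into 6 groups, so these values mainly reflect the group levels, and they are given as a description with no p.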

How the data were processed

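RNA of sorted P-bodies and of cytoplasm was measured in 12 human libraries (3 cell types, 2 fractions, 2 libraries each). The deposited table holds raw counts per gene that the authors made on hg38. The study's methods name hisat2 2.1.0 with featureCounts 1.6.2 for one kind of library and the nf-core RNA-seq pipeline 3.9 with salmon 1.10.2 for the other, and genes with fewer than 10 reads over all samples were filtered. Which route made which column is not given in the sources used here, and a gene's count could differ between the routes. Deposited fold changes and p-values of the authors' own comparisons, and the mouse libraries, were not used.

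From the counts, CPM per library were computed and 7 comparisons tested with edgeR 4.0.16 in R 4.3.3, using the quasi-likelihood test, TMM normalization and genes with a count above 0 in any library fitted. A gene was called at a two-sided Benjamini-Hochberg adjusted p under 0.05 over all genes. The SE is the log2 difference divided by the square root of the F statistic. Each fraction comparison used the 4 libraries of its cell type, and each enrichment difference was an interaction over 8 libraries. On simulated counts with 200 genes changed by 1.58 log2 units, 100% were recovered in the liver bud comparison (6 false calls among 21617 genes) and 97.5% in the liver bud and neuron interaction (10 among 22253). The changed genes were drawn only from well expressed ones, and all groups started from the same mean with a common spread. These rates therefore do not apply to genes with few counts or to the wider spread of the neuron P-bodies. Intervals on ratios cover counting error only. Per-kilobase levels, base composition and positions used the canonical GENCODE transcript, found for 92.6% of the genes tested in liver bud progenitors.

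The 9 genes and the further lists were chosen with earlier results of these data known. From each list the text names the 2 called genes of each direction with the smallest p and at least 5 CPM, plus ALB, TTR, APOA1, HHEX, FOXA3, EOMES, CXCR4 and POU5F1 whatever their values. Some genes that this rule or the search for like genes would name are not reported here. AHSG and TBX6 were named after their values were seen. Alternatives were RLE size factors, library size only, DESeq2 1.42.0, a stricter filter, a fit of all 12 libraries, the replicate number as a block, ribosomal RNA genes left out, and each library left out in turn.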

Additional observations from a re-analysis of the deposited data

Results flagged for a closer look

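In 8 tests the P-body enrichment of a gene differed between liver bud progenitors and another cell type (edgeR's quasi-likelihood interaction test, Benjamini-Hochberg adjusted). Against neurons the log2 difference was -4.2 for HNF4A (adjusted p = 0.00116), -3.1 for GATA4 (adjusted p = 0.00192), -1.55 for PROX1 (adjusted p = 6.41e-05) and -1.5 for APOB (adjusted p = 0.00142). HNF4A had 7 counts and GATA4 5 counts in neuron cytoplasm over both libraries, and the HNF4A counts in neuron P-bodies were 42 and 10.

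Against HEK293T the log2 difference was -1.51 for GATA6 (adjusted p = 1.49e-08), -1.19 for GATA4 (adjusted p = 3.78e-07), -1.21 for PROX1 (adjusted p = 4.51e-06) and -2.24 for APOB (adjusted p = 2.29e-05). APOB had 14 counts in HEK293T cytoplasm over both libraries. Both HEK293T fractions were made with another library kit than the liver bud fractions, and kit and cell type cannot be told apart. All 8 differences kept their direction under every alternative run and passed in those that kept all libraries. Every run took the spread over the fitted groups together. The p-values against neurons thus do not measure the spread of the neuron P-body pair by itself. With each library left out, HNF4A against neurons ranged from -4.83 to -2.64, APOB against neurons from -1.69 to -0.99 and APOB against HEK293T from -2.99 to -1.77. No explanation was tested for any of them.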

How the results depend on the processing

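In neurons 2 of the 9 genes were called, against 4 in a fit of all 12 libraries and 1 to 3 with each library left out, and in HEK293T 1 was called, against 2 with scaling by library size only. With each library left out the genes called over the whole table ranged from 4001 to 8827 in neurons (6343 with all libraries) and from 2419 to 6285 for the difference in enrichment between liver bud progenitors and neurons (3942 with all libraries). The sign of a difference that had not passed reversed for FOXA1 in liver bud progenitors without P-body library 2 (0.2) or cytoplasm library 2 (0.09; range -0.42 to 0.2), for APOB in neurons without P-body library 2 (range -0.11 to 0.57) and for HNF4A in HEK293T without cytoplasm library 1 (range -1.33 to 1.46). SOX17 in P-bodies of liver bud progenitors against neurons lost its call without liver bud P-body library 1 (adjusted p = 0.0542). The cause was not tested. With the replicate number as a block 8481 genes and 6 of the 9 were called in liver bud progenitors, but same-numbered libraries did not deviate together (r = 0.02, 0.08 and -0.09 in liver bud progenitors, neurons and HEK293T), so the numbers were not taken as pairs.

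Scaling by library size only gave a median log2 difference of all genes of -0.28 in place of -0.09 for liver bud progenitors, 0.35 in place of 0.19 for neurons and -0.13 in place of -0.01 for HEK293T. The share of calls that were higher was then 44.1% in place of 55.7% for liver bud progenitors, 62% in place of 50.8% for neurons and 63.5% in place of 49.8% for liver bud against neuron cytoplasm. For the differences in enrichment against neurons and HEK293T it was 21.1% in place of 48% and 59.4% in place of 45.5%, and 37.1% and 60.8% with the stricter filter. Leaving ribosomal RNA genes out of the total raised the levels, for example from 38.9 to 49.1 CPM for HNF4A in liver bud cytoplasm. Depth limits what can be said of FOXA1 and SOX17 in liver bud progenitors, with 14 to 47 counts per library, and of every gene but PROX1 in neurons.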
